A study of Mus musculus with 20 samples.

Results

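The 47 genes described here encode lysosomal enzymes and their activators, lysosomal membrane proteins, receptors that carry enzymes to the lysosome, and the TFEB family of transcription factors. They were chosen by name from a list of gene symbols that leaves out the cathepsins and the proton pump, and are 47 of the 51456 symbols measured. The list holds 11 glycosidases, 4 sulfatases, 9 lipid enzymes, activators and sterol carriers, and 3 genes for proteases and progranulin. The rest are 13 membrane proteins, 4 sorting genes and 3 transcription factors. All 47 reached the minimum mean of 1 FPKQ over the 20 libraries and were tested. FPKQ is the deposited expression unit, treated here as fragments per gene length on a scale set for each library, and its definition was not found in the sources used here.

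Poly-A RNA was sequenced from macrophages grown out of the bone marrow of C57BL/6 mice aged 4 to 5 months. CSF-1 at 50 ng/ml, the cytokine that turns marrow precursors into macrophages, was present for the 6 days of culture. The KO group (5 libraries) came from mice with a Trem2 knockout labelled as 5 bp, the R47H group (5 libraries) from knock-in mice whose Trem2 carries the R47H substitution, and the WT group (10 libraries) from wild-type littermates of both lines. The labels do not say which WT libraries are littermates of which mutant line, so all 10 were the control for both. Each mutant was also set against WT Rep1 to Rep5 only (called the first WT set) and Rep6 to Rep10 only (the second WT set). Both mutations are germline, so every cell of a culture carries them, and the labels do not give the sex of the mice or say how many founders either line has. Trem2 is a lipid-binding receptor of macrophages and microglia, and the human R47H variant is a risk factor for Alzheimer's disease. The series compares what each mutation does to the macrophage transcriptome.

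Lysosomes are the acidic compartments in which macrophages break down engulfed cells, proteins, glycans and lipids. Soluble hydrolases are tagged with mannose phosphate in the Golgi and carried to the lysosome by sorting receptors, while membrane proteins protect the organelle and export the products of digestion. Transcription factors of the TFEB family bind a short element in the promoters of many of these genes and raise them together when they enter the nucleus.

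The core of that element is CACGTG, and its extended form is TCACGTGA, which contains the core. Both read the same on either strand. RefSeq promoters on GRCm38.p6, 250 bases before to 50 bases after each listed gene start, were found for 42 of the 47 members. Asah1, Npc1, Hgsnat, Sort1 and M6pr had none in that table. At least 1 CACGTG was present in a promoter of 13 of these 42 members (31.0%) and of 2187 of all 27025 genes in the table (8.09%), and TCACGTGA was present in 6 of 42 members (14.3%) and 304 of 27025 genes (1.12%). The 13 were Arsa, Clcn7, Cln3, Gaa, Gla, Glb1, Gnptg, Igf2r, Lamp1, Lgmn, Mcoln1, Naglu and Sgsh. Split by the KO comparison described next, CACGTG was present in 12 of 29 members that were higher in KO, in 1 of 11 that did not pass the test and in 0 of 2 that were lower. The same split was not made over all tested genes, and the 27025 genes include many that were not tested here. A link between the motif and the change in KO was therefore not tested. The match is a description of these letters and does not show that a factor binds there. The promoters below are shown because Lamp1 held the most copies of the core (4, starting 61, 45, 28 and 15 bases before the gene start), Mcoln1 held the extended form 46 bases before the start and a core 71 bases before it, Naglu and Sgsh each held 1 core (73 and 29 bases before the start), and Psap, the member with the largest rise in KO, held none. Capitals mark the motif. In GRCm38.p6 they lie at chr8:13158911-13159210 (plus strand, Lamp1), chr8:3500269-3500568 (plus strand, Mcoln1), chr11:101069844-101070143 (plus strand, Naglu), chr11:119355461-119355760 (minus strand, Sgsh) and chr10:60277378-60277677 (plus strand, the first of 2 starts listed for Psap).
Lamp1: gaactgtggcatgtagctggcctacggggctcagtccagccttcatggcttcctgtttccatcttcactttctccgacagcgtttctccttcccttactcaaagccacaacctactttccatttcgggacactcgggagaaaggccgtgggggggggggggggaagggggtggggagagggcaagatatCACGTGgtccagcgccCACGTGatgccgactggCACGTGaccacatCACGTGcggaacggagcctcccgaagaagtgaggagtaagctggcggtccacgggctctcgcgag
Mcoln1: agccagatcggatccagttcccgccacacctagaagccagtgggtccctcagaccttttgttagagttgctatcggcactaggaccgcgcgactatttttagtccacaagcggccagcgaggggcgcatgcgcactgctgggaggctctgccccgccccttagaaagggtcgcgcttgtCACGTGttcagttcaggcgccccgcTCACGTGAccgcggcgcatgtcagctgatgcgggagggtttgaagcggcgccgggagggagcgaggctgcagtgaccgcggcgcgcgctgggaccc
Naglu: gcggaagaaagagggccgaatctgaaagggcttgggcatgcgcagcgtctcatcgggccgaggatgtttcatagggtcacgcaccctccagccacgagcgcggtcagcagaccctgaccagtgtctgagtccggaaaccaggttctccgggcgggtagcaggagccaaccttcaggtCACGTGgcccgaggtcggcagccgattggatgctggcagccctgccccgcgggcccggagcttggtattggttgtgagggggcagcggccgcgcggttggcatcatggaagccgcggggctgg
Sgsh: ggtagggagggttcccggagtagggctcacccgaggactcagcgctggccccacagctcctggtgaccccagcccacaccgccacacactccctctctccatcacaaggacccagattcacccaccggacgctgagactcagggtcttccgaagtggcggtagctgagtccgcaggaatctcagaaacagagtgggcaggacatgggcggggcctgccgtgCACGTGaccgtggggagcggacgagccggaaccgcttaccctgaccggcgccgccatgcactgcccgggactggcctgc
Psap: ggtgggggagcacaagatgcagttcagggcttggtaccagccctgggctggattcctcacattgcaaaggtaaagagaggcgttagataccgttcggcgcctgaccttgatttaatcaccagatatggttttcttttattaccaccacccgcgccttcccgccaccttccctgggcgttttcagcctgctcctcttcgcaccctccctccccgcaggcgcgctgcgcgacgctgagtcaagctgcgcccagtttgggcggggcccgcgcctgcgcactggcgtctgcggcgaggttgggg

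Trem2 itself had 23.7 to 24.8 FPKQ in KO, 496 to 794 FPKQ in R47H and 691 to 901 FPKQ in WT, and R47H averaged 80.9% of WT (limma adjusted p = 0.0110). Macrophage markers (10 genes, of which 6 rose and 3 fell in KO, and 6 rose and 2 fell in R47H) summed to 33133 to 35849 FPKQ in KO, 27061 to 29991 in R47H and 23522 to 26945 in WT. Markers of dendritic cells summed to 2.87 to 4.16 FPKQ in KO, 1.78 to 3.40 in R47H and 1.84 to 3.06 in WT, and those of stroma to 0.809 to 1.91 FPKQ in KO, 0.142 to 0.943 in R47H and 0.276 to 0.603 in WT, so that stromal markers, though low, were higher in every KO library than in any WT library. Those of erythroid cells and megakaryocytes summed to 17.1 to 30.6 FPKQ in KO, 11.6 to 29.0 in R47H and 15.0 to 23.8 in WT, and those of lymphocytes or mast cells to at most 1.37 FPKQ in any library. Neutrophil markers summed to 99.9 to 132 FPKQ in KO, 88.0 to 154 in R47H and 72.3 to 109 in WT. Osteoclast markers (7 genes) summed to 191 to 304 FPKQ in KO, 172 to 244 in R47H and 114 to 279 in WT. Of the 5 tested, 2 rose and 1 fell in KO, and 0 rose and 0 fell in R47H. Calcr, 1 of the 7, was at 0 in KO and WT but not in R47H. An FPKQ of 1 equalled, for a 2 kb gene, about 46.3 to 71.1 fragments, with means of 51.7 in KO, 52.6 in R47H and 60.9 in WT. R47H Rep2 and Rep3 stood apart from the other R47H libraries: their FPKQ values summed to 680147 and 679634, against 590190 to 634036 in R47H Rep1, Rep4 and Rep5, and their Trem2 levels, 772 and 794 FPKQ, were the highest of the group. Counts of calls for R47H over the members and lists are therefore given with and without those 2 libraries. In bulk libraries such as these, fewer cells of a type and less RNA per cell cannot be told apart.

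In WT macrophages the 47 genes spanned a wide range. Their median level was 70.8 FPKQ, against 13.4 FPKQ over all 10843 genes tested. Psap was the highest at 6745 FPKQ, rank 5 of all tested genes, followed among the members by Grn, Lamp1 and Cd63. Arsb was the lowest at 14.1 FPKQ. These levels are set side by side on the scale of FPKQ, which is taken to be per gene length.

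Most of the lysosomal genes were higher in macrophages without Trem2. Of the 47, 32 were higher in KO than in WT and 2, Arsb and Mitf, were lower (limma adjusted p under 0.05). The higher calls were 68.1% of the members, against 28.2% of all genes tested, and the lower calls 4.26%, against 23.7%. The median log2 fold change on the scale of log2(FPKQ + 1) was 0.31 over the members and 0.01 over all tested genes. In 26 members every KO library was above all 10 WT libraries (15.4% of all tested genes were so), and in 1 every KO library was below (13.3% of all tested genes). The largest rises were those of Psap, Scarb2, Sgsh, Gaa and Naglu, with log2 fold changes of 0.67 to 0.92.

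Many of them were also higher in R47H macrophages. There, 25 members were higher than in WT and 1, Arsb, was lower, so that 53.2% of members were higher, against 13.4% of all genes tested, and 2.13% lower, against 7.83%. The median log2 fold change was 0.18 over the members and 0.04 over all tested genes. All 5 R47H libraries were above every WT library in 11 members (3.77% of all tested genes), namely Gla, Man2b1, Naglu, Idua, Pla2g15, Psap, Gm2a, Scarb2, Clcn7, Ctns and Cln3, and below in 1 (3.14%). The R47H count depended on the scale. When libraries were rescaled to equal FPKQ sums, which moved the median of all genes by -0.11, 10 members were higher (4.39% of all tested genes) and 2 lower (16.8%). Relative to the median of all genes, the members' median was 0.14 as deposited, 0.13 after rescaling and 0.08 after quantile normalization. The 10 were Hexa, Man2b1, Naglu, Pla2g15, Psap, Gm2a, Npc2, Scarb2, Ctns and Cln3, and the 2 were Arsb and Hgsnat. In KO the same rescaling gave 27 members higher (18.4% of all tested genes) and 5 lower (32.6%), Gusb, Fuca1 and Tfe3 joining Arsb and Mitf, with a members' median of 0.29 as deposited and 0.28 rescaled relative to all genes. Without R47H Rep2 and Rep3, 17 members were higher in R47H than in WT (10.2% of all tested genes) and 1 lower (7.18%), and all remaining R47H libraries were above every WT library in 13 members (7.29% of all tested genes).

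Set directly against each other, 21 members were lower in R47H than in KO and 5 were higher (Fuca1, Arsb, Pla2g15, Tfe3 and Mitf). The lower calls were 44.7% of members, against 18.0% of all genes tested, and the higher calls 10.6%, against 22.8%. The median log2 fold change was -0.13 over the members and 0.03 over all tested genes. In 16 members every R47H library was below every KO library (10.8% of all tested genes), and in 2, Fuca1 and Tfe3, every R47H library was above (12.3%). After rescaling, 25 were lower (18.3% of all tested genes) and 4 higher (19.0%), and without R47H Rep2 and Rep3, 19 were lower (13.5%) and 3 higher (16.3%), with no overlap in 21 below (14.3%) and 4 above (16.8%). KO and R47H are separate lines, so a line difference and the mutation cannot be told apart in this comparison. The first and second WT sets did not overlap in 4 members (8.51%, against 11.4% of all tested genes), Naglu, Sgsh, Smpd1 and Slc17a5. All 4 were higher in the first WT set and were among the 21 lower in R47H than in KO. The 3 comparisons share groups, so their calls are given side by side. Of the members, 14 (29.8%, against 4.36% of all tested genes) were higher in KO and in R47H and lower in R47H than in KO: Clcn7, Ctns, Gaa, Galc, Gm2a, Idua, Lamp1, Laptm5, Man2b1, Naglu, Psap, Scarb2, Sort1 and Tpp1. A further 7 (14.9%, against 11.6%) passed as higher in KO and lower in R47H than in KO, without passing in R47H against WT: Asah1, Ids, Npc1, Ppt1, Sgsh, Slc17a5 and Smpd1. Neither mutant nor the direct comparison passed for 8 members (17.0%, against 38.4%), which were Gnptg, Gusb, Hgsnat, Lamp2, M6pr, Manba, Ostm1 and Tfeb. Without R47H Rep2 and Rep3 these 3 counts were 10 (3.68% of all tested genes), 9 (8.46%) and 11 (42.7%).

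**Figure D1:**
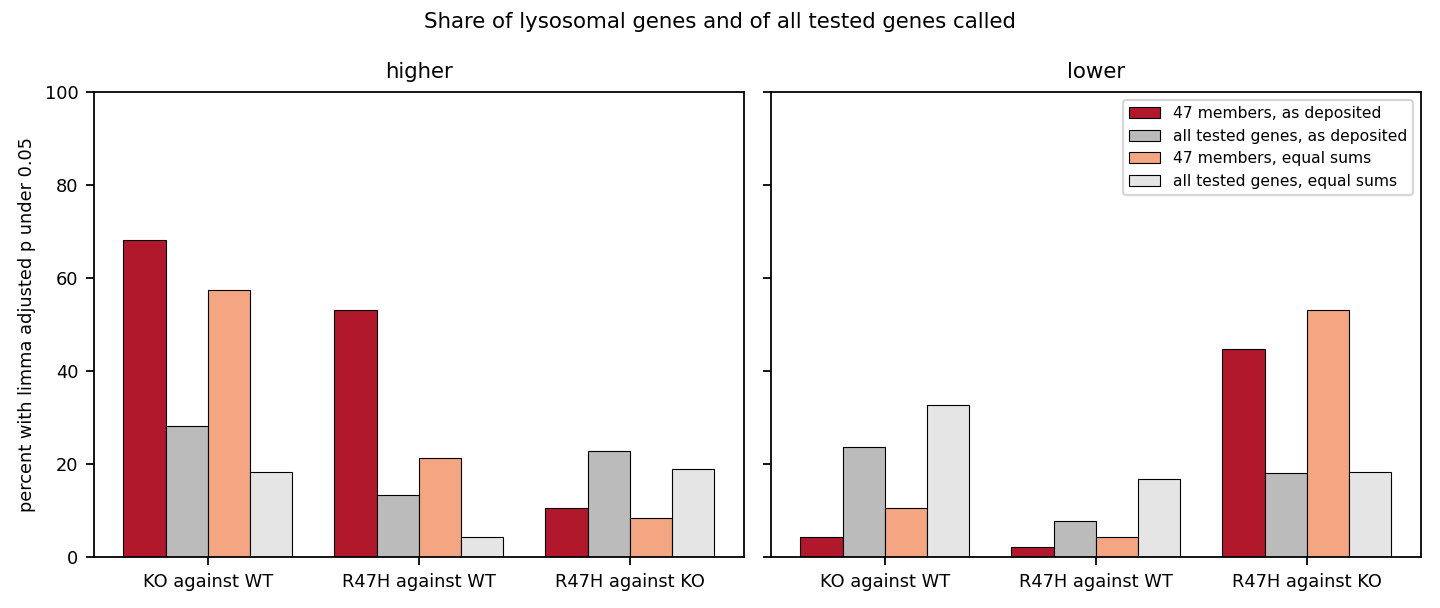
Percent of the 47 lysosomal genes and of all tested genes called higher (left panel) or lower (right panel) by limma in each comparison, as deposited and after rescaling libraries to equal sums. Higher calls made up 68.1% of members in KO against WT and 53.2% in R47H against WT, against 28.2% and 13.4% of all tested genes.

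**Figure D2:**
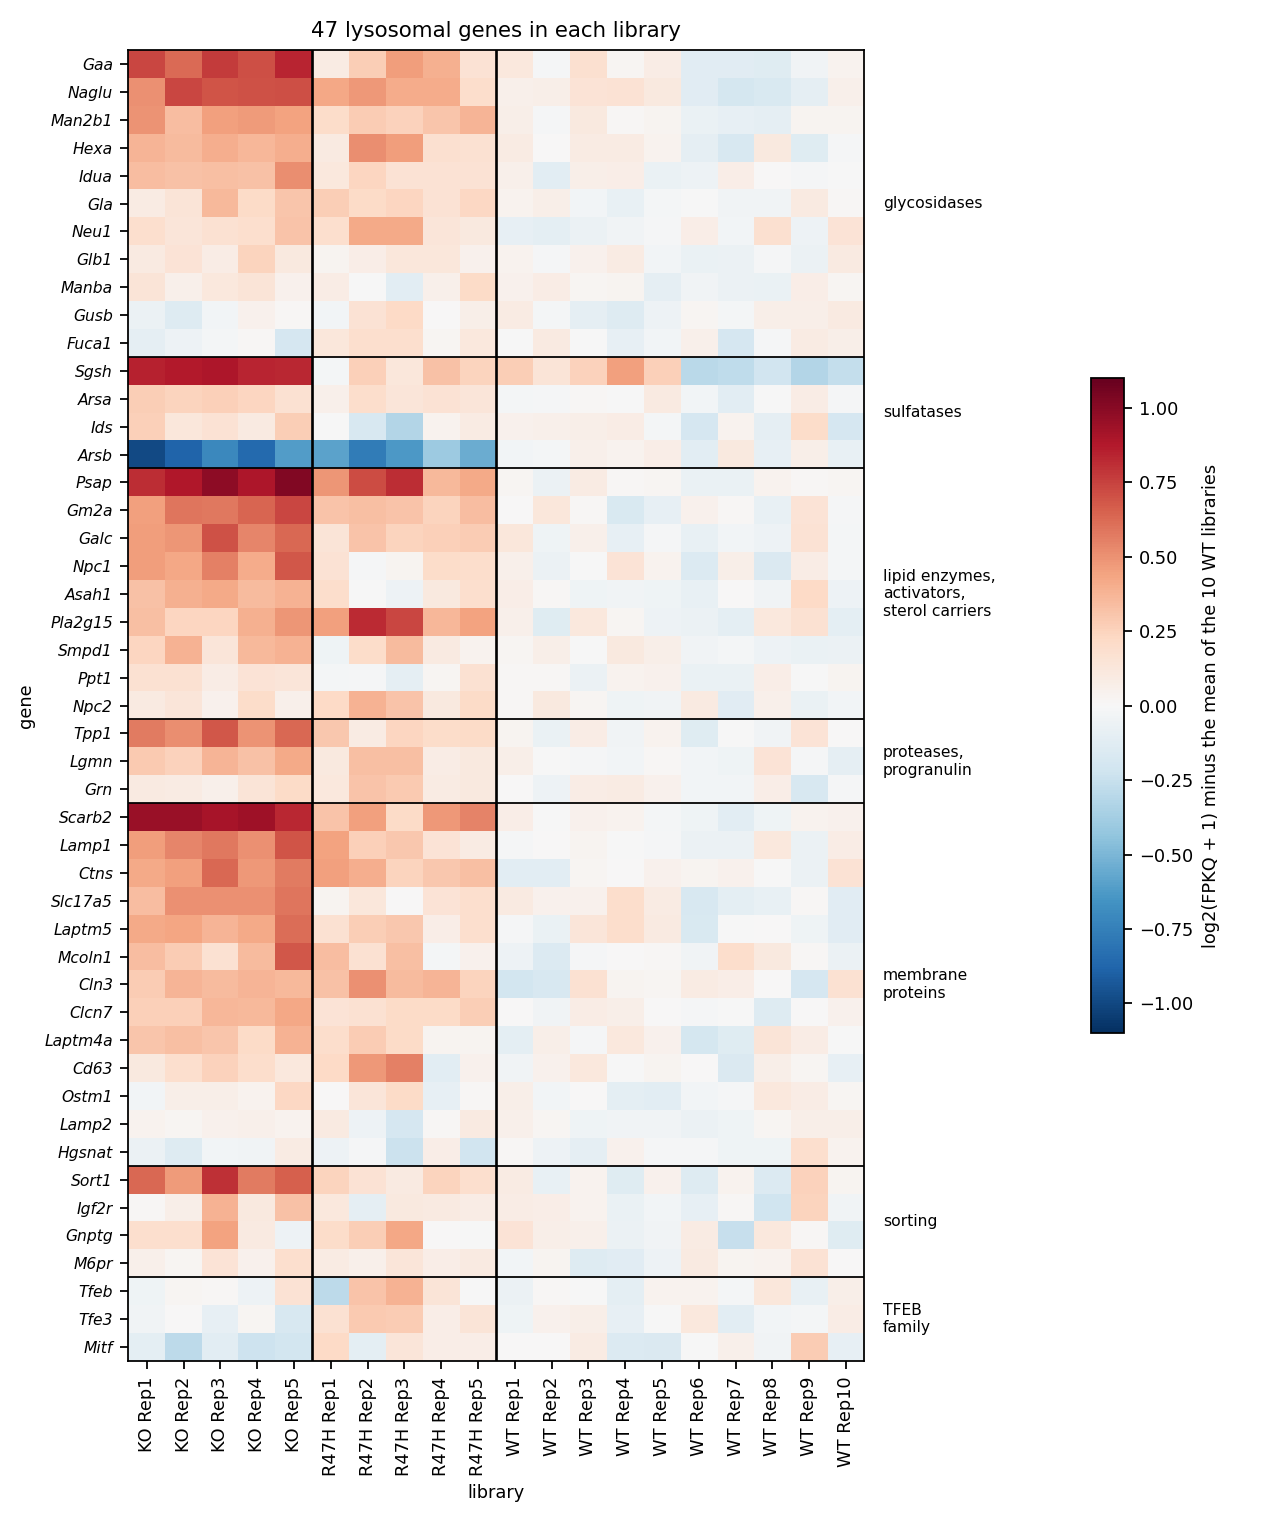
Each row is a gene and each column a library, coloured by log2(FPKQ + 1) minus the mean of the 10 WT libraries, with KO libraries on the left, R47H in the middle and WT on the right. Most rows are red in the 5 KO libraries and paler red in the 5 R47H libraries, while Arsb is blue in both.

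On the deposited scale, the shift was present in each library of both mutants. The median over members of the log2 difference from the WT mean ran from 0.25 to 0.38 in KO libraries, from 0.13 to 0.24 in R47H libraries and from -0.05 to 0.04 in WT libraries, so the 3 groups did not overlap, with R47H Rep2 and KO Rep2 lying closest. Over all tested genes the same median ran from 0.0005 to 0.03 in KO libraries, 0.03 to 0.06 in R47H and -0.007 to 0.01 in WT. FPKQ sums relative to the mean library were 1.04, 1.12, 1.12, 0.972 and 1.00 in R47H Rep1 to Rep5 and 0.916 to 0.991 in WT. The members' medians per library were not computed after rescaling to equal sums. Whether the groups stay separate on that scale was not tested. As deposited, KO libraries had 39 to 43 of the 47 members above the WT mean, R47H libraries 37 to 43 and WT libraries 12 to 33. Summed FPKQ of the members made up 4.03% to 4.51% of each library's total in KO, 3.40% to 3.68% in R47H and 2.79% to 3.09% in WT. Psap alone was 48.1% to 50.1% of that sum in KO, 43.0% to 47.3% in R47H and 37.6% to 39.3% in WT, so the sum follows Psap more than any other member. The 10 cell division genes examined beside them (such as Top2a and Mki67) were all lower in KO and in R47H than in WT, with median log2 fold changes of -2.12 and -1.14, the macrophage marker sums above were higher in both mutants, and the stromal sums were higher in KO. The part of these in the lysosomal change was not tested. Cd68, 1 of the macrophage markers, is also in the list of other lysosomal membrane proteins described below.

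**Figure D3:**
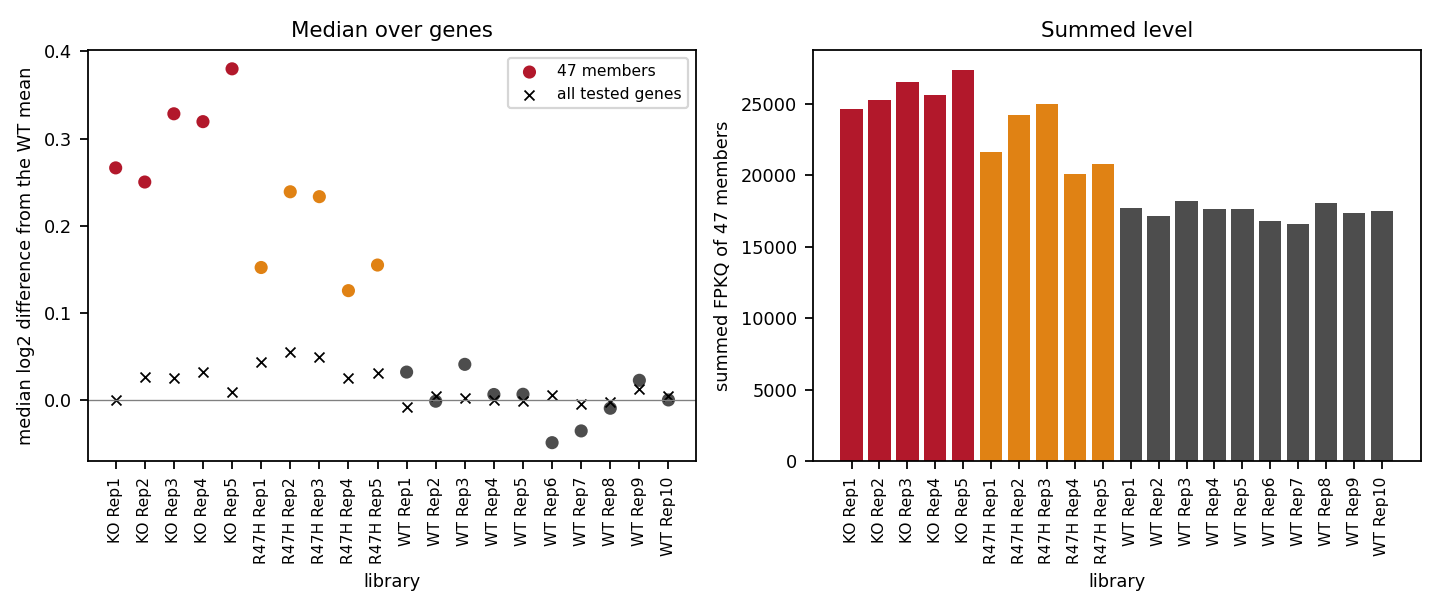
Left, the median over the 47 members (circles) and over all tested genes (crosses) of the log2 difference from the WT mean, per library. Right, bars of the summed FPKQ of the members per library, with KO at 24649 to 27401, R47H at 20094 to 25021 and WT at 16611 to 18221.

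Among the 11 glycosidases, which cut sugars from glycoproteins, glycolipids and glycosaminoglycans, 8 rose in KO and 7 rose in R47H (4 without R47H Rep2 and Rep3), and none fell in either. Gaa, the acid glucosidase that degrades glycogen, had 85.6, 79.2, 88.0, 84.2 and 91.9 FPKQ in KO, 54.5, 62.0, 70.6, 67.3 and 57.2 FPKQ in R47H, and a lowest, median and highest level of 46.4, 51.2 and 57.9 FPKQ in WT. Each KO library lay above all R47H and WT libraries, and R47H overlapped WT in 2 libraries. On the log2 scale the change was 0.73 (SE 0.06, adjusted p = 1.84e-09) in KO and 0.28 (SE 0.06, adjusted p = 0.00261) in R47H, and R47H was below KO by a log2 value of -0.46 (adjusted p = 4.12e-05). The R47H call was lost against the first WT set (adjusted p = 0.0525) and after rescaling (adjusted p = 0.102). Naglu, which removes N-acetylglucosamine from heparan sulfate, had 78.5, 92.3, 89.5, 90.4 and 90.6 FPKQ in KO, 74.2, 77.3, 73.3, 73.3 and 63.4 FPKQ in R47H, and 48.0, 57.4 and 61.5 FPKQ as lowest, median and highest in WT. The 3 groups did not overlap. Its log2 fold change was 0.67 (SE 0.06, adjusted p = 1.53e-08) in KO and 0.38 (SE 0.06, adjusted p = 0.000171) in R47H, with R47H at -0.29 against KO (adjusted p = 0.00449).

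Man2b1, the lysosomal mannosidase, had 423, 379.9, 409.7, 415 and 408 FPKQ in KO, 344, 365, 357, 371 and 389 FPKQ in R47H, and 279.9, 304 and 322 FPKQ as lowest, median and highest in WT. Both mutants lay wholly above WT, and 1 R47H library was above the lowest KO library. It rose by 0.44 (SE 0.04, adjusted p = 1.34e-08) in KO and 0.28 (SE 0.04, adjusted p = 3.95e-05) in R47H on the log2 scale, and was lower in R47H than in KO (-0.16, adjusted p = 0.0143, or 0.0561 without R47H Rep2 and Rep3). Hexa, the alpha subunit of the hexosaminidase that degrades GM2 ganglioside, had 1063, 1043, 1084, 1058 and 1084 FPKQ in KO, 879, 1169, 1125, 928 and 921 FPKQ in R47H, and 724, 831 and 883 FPKQ as lowest, median and highest in WT. KO was even and wholly above WT, whereas R47H Rep2 and Rep3 were above every KO library and R47H Rep1 was within WT. The log2 fold changes were 0.38 (SE 0.07, adjusted p = 5.29e-05) in KO and 0.28 (SE 0.07, adjusted p = 0.00343) in R47H. Without R47H Rep2 and Rep3 the R47H value was 0.15 and did not pass (adjusted p = 0.0899), and Hexa was then lower in R47H than in KO (-0.23, adjusted p = 0.0128), a difference that did not pass with all libraries (adjusted p = 0.325).

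Of the other glycosidases, Idua, Gla, Neu1 and Glb1 rose in KO with log2 fold changes of 0.14 to 0.36. Gla, whose enzyme clears globotriaosylceramide, rose in both mutants, with a log2 fold change of 0.22 in KO and 0.22 in R47H and levels of 108 ± 8.38 FPKQ in KO and 108 ± 2.99 FPKQ in R47H (SD, n = 5 each), against 92.6 ± 3.60 FPKQ in WT (SD, n = 10). The Gla call in R47H was lost after rescaling (adjusted p = 0.137). Neu1, the lysosomal sialidase, rose by 0.20 in KO (adjusted p = 0.00874) and 0.25 in R47H (adjusted p = 0.00386), neither of which passed against the second WT set (adjusted p = 0.132 and 0.0789). Its highest levels, 79.1 and 79.3 FPKQ, were in R47H Rep2 and Rep3, and without them the R47H call was lost (adjusted p = 0.101). After rescaling, Neu1 passed in neither mutant. Idua rose in R47H as well (0.17, adjusted p = 0.00668), a call lost without R47H Rep2 and Rep3 (adjusted p = 0.0533) and after rescaling (adjusted p = 0.560). Glb1, which shares exons on its own strand with Tmppe and so may be counted in part with it, passed in KO alone, and not after rescaling (adjusted p = 0.329). Tmppe averaged 8.61 FPKQ in KO, 4.88 FPKQ in R47H and 5.00 FPKQ in WT. Manba, Gusb and Fuca1 passed in neither mutant as deposited, though Fuca1 passed in R47H without WT Rep2, WT Rep9 or R47H Rep4 (adjusted p down to 0.0331). Fuca1 averaged 138 ± 6.46 FPKQ in R47H and 121 ± 6.43 FPKQ in KO (SD, n = 5 each), the one glycosidase higher in R47H than in KO (0.20, adjusted p = 0.00729, or 0.0633 without R47H Rep2 and Rep3).

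The 4 sulfatases moved apart, with 3 higher and 1 lower in KO, and 1 higher (0 without R47H Rep2 and Rep3) and 1 lower in R47H. Sgsh, which removes sulfate from heparan sulfate, had 42.1, 42.9, 43.4, 41.7 and 41.5 FPKQ in KO, 22.5, 27.7, 25.1, 28.9 and 27.3 FPKQ in R47H, and 18.1, 22.5 and 31.8 FPKQ as lowest, median and highest in WT. Every KO library was above every other library. It was the most uneven member among WT libraries, at 25.4 to 31.8 FPKQ in the first WT set and 18.1 to 19.6 FPKQ in the second. Sgsh rose in KO by 0.86 (SE 0.12, adjusted p = 2.43e-06), or by 0.58 against the first WT set and 1.13 against the second. In R47H it did not pass against all WT (0.19, adjusted p = 0.281) or against the first WT set (-0.09, adjusted p = 0.374), but was higher than in the second WT set (0.46, adjusted p = 4.43e-05). Naglu, Smpd1 and Slc17a5 also had WT sets that did not overlap, together 8.51% of members, against 11.4% of all tested genes. Sgsh lies 57971 bases from the end of Gaa on chromosome 11 (Gaa at chr11:119267887-119285454 and Sgsh at chr11:119343425-119355536, GRCm38).

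Arsb, the sulfatase that acts on dermatan and chondroitin sulfate, moved the opposite way. It had 6.55, 7.14, 8.18, 7.32 and 8.81 FPKQ in KO, 8.97, 7.85, 8.70, 10.4 and 9.32 FPKQ in R47H, and 12.9, 14.1 and 15.2 FPKQ as lowest, median and highest in WT. All mutant libraries lay below all WT libraries, and KO and R47H overlapped. The mean FPKQ of Arsb was 54.1% of the WT mean in KO and 64.4% in R47H. The log2 change was -0.81 (SE 0.06, adjusted p = 4.76e-10) in KO and -0.59 (SE 0.06, adjusted p = 6.69e-07) in R47H. R47H was above KO by 0.23 (adjusted p = 0.0169), a call lost without KO Rep1 (adjusted p = 0.0570) and after rescaling (adjusted p = 0.105). Arsa, which degrades sulfatide, had 22.2, 21.8, 22.1, 21.7 and 20.7 FPKQ in KO, 19.0, 21.0, 20.2, 20.5 and 20.2 FPKQ in R47H, and 16.8, 18.2 and 19.7 FPKQ as lowest, median and highest in WT. KO was wholly above WT and R47H overlapped it in 1 library. Its log2 fold change was 0.23 (SE 0.04, adjusted p = 1.84e-05) in KO and 0.13 (SE 0.04, adjusted p = 0.0129) in R47H, the second lost after rescaling (adjusted p = 0.812), against the first WT set (adjusted p = 0.0649) and without R47H Rep2 and Rep3 (adjusted p = 0.0773). Ids, the iduronate sulfatase, had 30.9, 27.9, 28.7, 27.5 and 31.1 FPKQ in KO, 25.4, 22.5, 20.2, 26.3 and 27.2 FPKQ in R47H, and 22.3, 26.3 and 29.5 FPKQ as lowest, median and highest in WT. KO and R47H each overlapped WT but not each other. It passed in KO (0.18, SE 0.07, adjusted p = 0.0283) but not without KO Rep1 or KO Rep5 (adjusted p up to 0.0795), nor against the first WT set (adjusted p = 0.121) or after rescaling (adjusted p = 0.335), and was lower in R47H than in KO (-0.26, adjusted p = 0.0121, or 0.161 without R47H Rep2 and Rep3).

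Lipid enzymes and their helpers gave the largest rise. Of these 9 genes, 8 rose in KO and 5 in R47H, and 7 were lower in R47H than in KO (6 and 6 without R47H Rep2 and Rep3). Psap encodes prosaposin, which is cut into the saposins that present sphingolipids to their hydrolases. It had 11858, 12382, 13297, 12459.7 and 13661 FPKQ in KO, 9414, 11059.8, 11825, 8642 and 9019.6 FPKQ in R47H, and 6393, 6820.2 and 7156 FPKQ as lowest, median and highest in WT. The 3 groups did not overlap. Psap rose on the log2 scale by 0.92 (SE 0.07, adjusted p = 2.84e-10) in KO and by 0.56 (SE 0.07, adjusted p = 4.13e-06) in R47H, and R47H was below KO by -0.36 (adjusted p = 0.00127). R47H Rep2 and Rep3 were the 2 highest of R47H. The difference between the mutants did not pass when no filter on low genes was set (adjusted p = 0.171). Quantile normalization, which forces the top ranks of all libraries to the same value, removed these calls.

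Gm2a, the activator that lifts GM2 ganglioside to hexosaminidase, had 131, 145, 143, 150.0 and 160.4 FPKQ in KO, 119.7, 121, 119, 114 and 122 FPKQ in R47H, and 85.4, 96.5 and 107 FPKQ as lowest, median and highest in WT. The groups were again separate. Its log2 fold change was 0.60 (SE 0.05, adjusted p = 2.07e-09) in KO and 0.31 (SE 0.05, adjusted p = 0.000127) in R47H, with R47H at -0.29 against KO (adjusted p = 0.000602). Galc, which removes galactose from galactosylceramide, had 97.6, 99.1, 115, 103 and 109.6 FPKQ in KO, 78.2, 87.9, 83.8, 85.0 and 85.6 FPKQ in R47H, and 66.1, 69.4 and 78.8 FPKQ as lowest, median and highest in WT. KO stood above both other groups, and R47H overlapped WT in 1 library. It rose by 0.56 (SE 0.05, adjusted p = 3.03e-09) in KO and 0.25 (SE 0.05, adjusted p = 0.000780) in R47H, the R47H call being lost after rescaling (adjusted p = 0.109).

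Pla2g15, the lysosomal phospholipase, was the one member that rose in both mutants and was higher in R47H than in KO. It had 112, 105, 105, 117 and 124 FPKQ in KO, 121, 158, 148, 114 and 121 FPKQ in R47H, and 80.6, 87.4 and 99.7 FPKQ as lowest, median and highest in WT. Both mutants lay wholly above WT and overlapped each other, with R47H Rep2 and Rep3 above every KO library. The log2 fold change was 0.34 (SE 0.07, adjusted p = 0.000509) in KO and 0.56 (SE 0.07, adjusted p = 6.90e-06) in R47H. The direct difference of 0.23 (adjusted p = 0.0342) was 0.08 without R47H Rep2 and Rep3 (adjusted p = 0.425), and was also lost without KO Rep1, KO Rep2, KO Rep3, R47H Rep2 or R47H Rep3 (adjusted p up to 0.115).

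Npc1 and Npc2 together export cholesterol from the lysosome, and only Npc1 passed in KO while only Npc2 passed in R47H. Npc1 averaged 107 ± 8.96 FPKQ in KO, 81.5 ± 5.56 FPKQ in R47H and 75.3 ± 5.34 FPKQ in WT (SD), a log2 fold change of 0.51 (SE 0.06, adjusted p = 1.94e-07) in KO and 0.11 (adjusted p = 0.172) in R47H, with the direct difference at -0.39 (adjusted p = 0.000108). Npc2 averaged 632 ± 27.6 FPKQ in KO, 698 ± 50.7 FPKQ in R47H and 588 ± 30.8 FPKQ in WT (SD), a log2 fold change of 0.11 (adjusted p = 0.0765) in KO and 0.25 (SE 0.05, adjusted p = 0.000933) in R47H. The direct difference for Npc2 was 0.14 and did not pass (adjusted p = 0.0542), except without KO Rep4, WT Rep7 or R47H Rep4 (adjusted p down to 0.0165). Asah1, the acid ceramidase, and Smpd1, the acid sphingomyelinase, rose in KO by 0.37 and 0.30 with no overlap with WT, and Ppt1, which strips palmitate from proteins, by 0.14, a call lost after rescaling (adjusted p = 0.390). None of these 3 passed in R47H against WT with all libraries (Asah1 did without R47H Rep2 and Rep3, adjusted p = 0.0359, and Smpd1 without R47H Rep1, adjusted p = 0.0368), and each was lower in R47H than in KO. For Asah1 the direct difference was -0.28 (adjusted p = 0.000616). For Smpd1 (-0.17, adjusted p = 0.0424) it was lost when any of 6 libraries was left out (KO Rep2, KO Rep4, KO Rep5, R47H Rep1, R47H Rep4 or R47H Rep5, adjusted p up to 0.124), and for Ppt1 (-0.13, adjusted p = 0.0296) likewise with KO Rep1, KO Rep2, KO Rep4, R47H Rep1, R47H Rep2 or R47H Rep3 (adjusted p up to 0.0893). The Ppt1 difference was also lost without both R47H Rep2 and Rep3. Ppt1 overlaps exons of Cap1 (268 FPKQ in KO, 298 in R47H and 338 in WT) on the other strand. The libraries keep the strand, but whether counting used it is not stated, so reads of this pair, and of Cln3 and Apobr, may not be told apart.

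**Figure D4:**
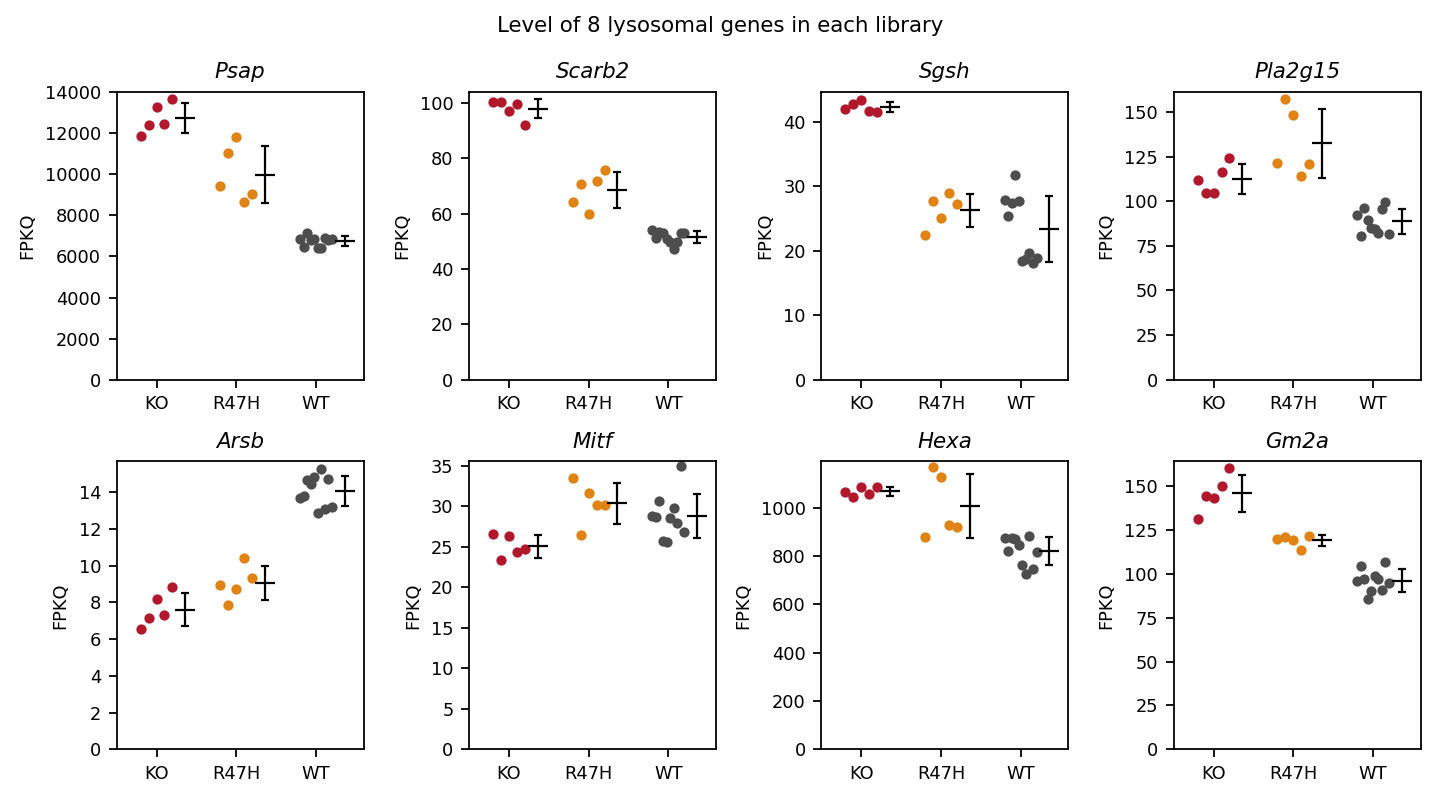
FPKQ of 8 genes in each library (points), with the group mean and SD beside them, for KO, R47H and WT; each axis starts at 0. Psap, Scarb2 and Sgsh are highest in KO, Pla2g15 reaches 158 FPKQ in R47H, Arsb is lower in both mutants than in WT, and Hexa and Gm2a are higher in KO than in WT.

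Of the 2 proteases and progranulin, Tpp1, which removes tripeptides from protein ends, had 212, 202, 229, 200.0 and 220.4 FPKQ in KO, 175, 152, 167, 163 and 165 FPKQ in R47H, and 129, 142 and 158 FPKQ as lowest, median and highest in WT. KO was wholly above both, and R47H overlapped WT in 1 library. It rose by 0.58 (SE 0.05, adjusted p = 1.14e-09) in KO and 0.21 (SE 0.05, adjusted p = 0.00283) in R47H, a call lost after rescaling (adjusted p = 0.317). Lgmn, the asparaginyl endopeptidase that processes cathepsins, had 1126, 1099, 1197, 1155 and 1232 FPKQ in KO, 998, 1159.6, 1163, 976 and 996 FPKQ in R47H, and 864, 915 and 1029 FPKQ as lowest, median and highest in WT. KO lay above WT, and 3 of 5 R47H libraries lay within it. Lgmn rose by 0.33 (SE 0.05, adjusted p = 1.77e-05) in KO and 0.19 (SE 0.05, adjusted p = 0.0113) in R47H, which did not pass without R47H Rep2 (adjusted p = 0.0512), against the second WT set (adjusted p = 0.0574) or after rescaling (adjusted p = 0.268). It did not pass between R47H and KO (-0.14, adjusted p = 0.0721), but was lower in R47H without R47H Rep2 and Rep3 (adjusted p = 0.00445). Grn, the growth factor progranulin that is delivered to lysosomes, had 1555, 1549, 1509.9, 1608 and 1690.2 FPKQ in KO, 1579, 1809, 1775, 1553 and 1572 FPKQ in R47H, and 1292, 1454 and 1555 FPKQ as lowest, median and highest in WT. Both mutants overlapped WT. The log2 fold change was 0.12 (SE 0.05, adjusted p = 0.0629) in KO, 0.0492 being the adjusted p without WT Rep4, and 0.18 (SE 0.05, adjusted p = 0.0152) in R47H. The R47H call was lost without R47H Rep2 (adjusted p = 0.0641), against the first WT set (adjusted p = 0.0980) and after rescaling (adjusted p = 0.387).

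Of the 13 membrane proteins, 9 rose in KO and 7 in R47H, none fell in either, and 6 were lower in R47H than in KO (5 and 5 in the R47H comparisons without R47H Rep2 and Rep3). Scarb2, the receptor that carries glucocerebrosidase to the lysosome, had 100.3, 101, 97.2, 99.5 and 92.3 FPKQ in KO, 64.4, 70.9, 59.8, 71.9 and 75.9 FPKQ in R47H, and 47.4, 52.1 and 54.2 FPKQ as lowest, median and highest in WT. The 3 groups were separate, and the KO mean was 190.0% of WT and the R47H mean 133%. The log2 fold change was 0.91 (SE 0.05, adjusted p = 1.14e-12) in KO and 0.40 (SE 0.05, adjusted p = 2.95e-06) in R47H, with R47H at -0.51 against KO (adjusted p = 4.57e-07). Lamp1, an abundant glycoprotein of the limiting membrane, had 1790.3, 1896, 1946, 1847 and 2111 FPKQ in KO, 1770.4, 1567, 1599, 1446 and 1391 FPKQ in R47H, and 1245, 1297 and 1411 FPKQ as lowest, median and highest in WT. Each KO library was above each R47H library, and 4 of 5 R47H libraries were above WT. Lamp1 rose by 0.55 (SE 0.05, adjusted p = 2.43e-08) in KO and 0.25 (SE 0.05, adjusted p = 0.00230) in R47H, the second lost after rescaling (adjusted p = 0.0803). Its relative Lamp2 passed in no comparison, at 499.8 ± 4.63 FPKQ in KO, 485 ± 39.1 FPKQ in R47H and 486 ± 17.5 FPKQ in WT (SD).

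Ctns, which exports cystine, had 27.4, 28.0, 31.9, 28.7 and 30.6 FPKQ in KO, 28.1, 27.1, 24.3, 25.1 and 25.8 FPKQ in R47H, and 18.6, 20.5 and 22.8 FPKQ as lowest, median and highest in WT. Both mutants were wholly above WT. Its log2 fold change was 0.51 (SE 0.05, adjusted p = 1.55e-08) in KO and 0.35 (SE 0.05, adjusted p = 2.59e-05) in R47H, and the direct difference of -0.16 (adjusted p = 0.0255) was lost without KO Rep3, KO Rep5 or R47H Rep3 (adjusted p up to 0.0769). That difference was also lost without both R47H Rep2 and Rep3. Cln3, the protein lost in juvenile Batten disease, had 54.4, 58.0, 56.8, 58.0 and 57.2 FPKQ in KO, 55.8, 63.5, 57.0, 57.8 and 53.1 FPKQ in R47H, and 38.7, 45.3 and 50.2 FPKQ as lowest, median and highest in WT. Mutant libraries of both kinds were above WT and overlapped each other. It rose by 0.35 (SE 0.06, adjusted p = 6.36e-05) in KO and 0.36 (SE 0.06, adjusted p = 0.000192) in R47H, with a direct difference of 0.01 (SE 0.07, adjusted p = 0.900).

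The remaining membrane proteins that rose in KO were Slc17a5, the sialic acid exporter (log2 fold change 0.49), Laptm5 (0.45), the calcium channel Mcoln1 (0.37), the chloride-proton exchanger Clcn7 (0.34) and Laptm4a (0.31). In R47H, Clcn7 rose by 0.20 (adjusted p = 0.000713, or 0.274 after rescaling) with all 5 libraries above WT. Clcn7 was lower in R47H than in KO with all libraries, but not without R47H Rep2 and Rep3. Slc17a5, Mcoln1 and Laptm4a did not pass in R47H against all WT (adjusted p = 0.240, 0.107 and 0.0719), although Slc17a5 did against the second WT set (adjusted p = 0.0227), Mcoln1 without R47H Rep4 (adjusted p = 0.0462) and Laptm4a without WT Rep8, R47H Rep4 or R47H Rep5 (adjusted p down to 0.0416). Laptm5 passed in R47H (0.20, adjusted p = 0.0206), but not without R47H Rep2 or R47H Rep3 (adjusted p up to 0.0638), against the first WT set (adjusted p = 0.194) or after rescaling (adjusted p = 0.411). Cd63, a tetraspanin of late endosomes, averaged 1369 ± 56.5 FPKQ in KO, 1452 ± 281 FPKQ in R47H and 1216 ± 66.8 FPKQ in WT (SD). Its R47H call (0.24, adjusted p = 0.0425) rested on R47H Rep2 and Rep3, at 1691 and 1784 FPKQ, and was 0.05 without them (adjusted p = 0.646). It was also lost against either WT set alone (adjusted p = 0.182 and 0.0965), after rescaling (adjusted p = 0.174) and when any of 13 single libraries was left out (adjusted p up to 0.163). In KO, Cd63 did not pass (0.17, adjusted p = 0.0832), except without R47H Rep3 or R47H Rep4 in the shared model (adjusted p down to 0.0383). Ostm1, the partner subunit of Clcn7, and Hgsnat, the enzyme that acetylates heparan sulfate, passed in neither mutant as deposited, and Hgsnat was lower in R47H after rescaling (adjusted p = 0.0241).

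**Figure D5:**
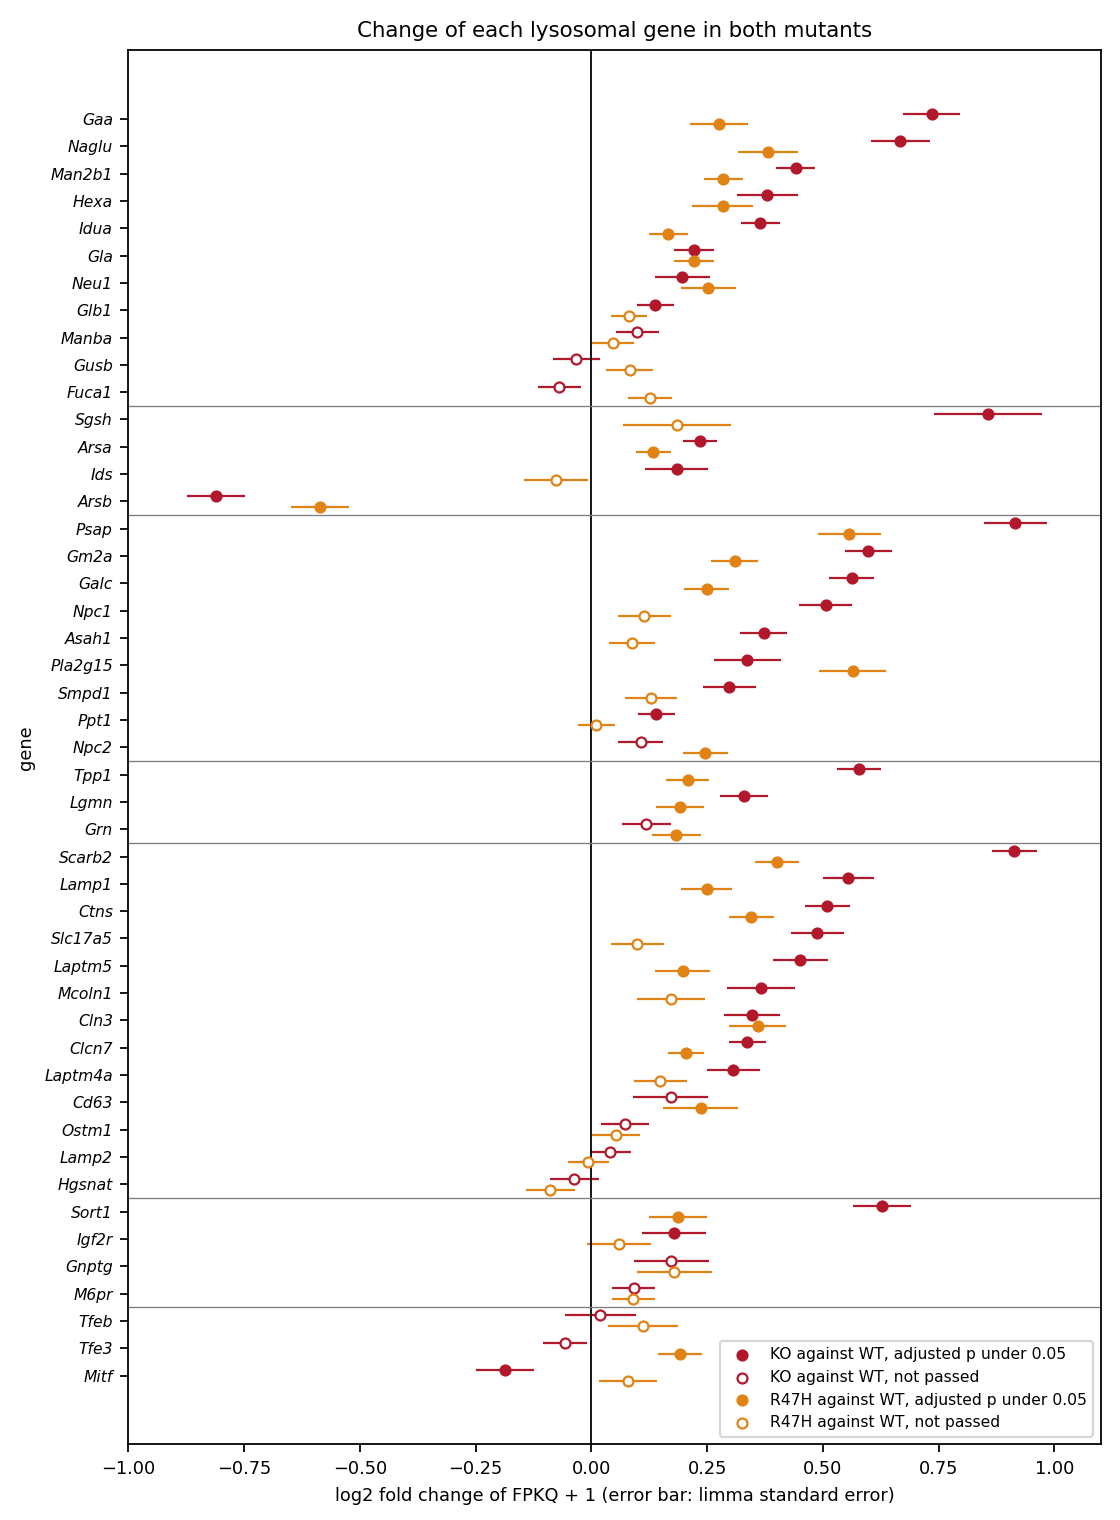
Log2 fold change of each of the 47 genes in KO against WT (red, upper of each pair) and R47H against WT (orange, lower), grouped by role and sorted within it by the KO value; bars are limma standard errors and filled points passed an adjusted p of 0.05. Psap, Scarb2 and Sgsh lie farthest right in KO, at 0.92, 0.91 and 0.86, Pla2g15 and Psap in R47H, at 0.56 each, and Arsb lies farthest left in both.

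Sorting genes changed less evenly. Sort1, or sortilin, which carries prosaposin and progranulin, had 24.8, 22.0, 28.0, 23.7 and 25.3 FPKQ in KO, 18.7, 17.6, 16.8, 18.7 and 17.9 FPKQ in R47H, and 14.0, 16.0 and 18.8 FPKQ as lowest, median and highest in WT. KO was separate from both other groups, while all 5 R47H libraries lay within WT. It rose by 0.63 (SE 0.06, adjusted p = 2.54e-08) in KO, and by 0.19 (SE 0.06, adjusted p = 0.0369) in R47H, a call lost when any of 8 libraries was left out (WT Rep2, WT Rep4, WT Rep6, WT Rep8, R47H Rep1, R47H Rep2, R47H Rep4 or R47H Rep5, adjusted p up to 0.0820), against the second WT set (adjusted p = 0.127) and after rescaling (adjusted p = 0.533). Igf2r, the larger mannose phosphate receptor, had 38.8, 40.3, 50.7, 41.6 and 48.4 FPKQ in KO, 41.9, 35.8, 41.5, 41.3 and 40.8 FPKQ in R47H, and 32.9, 38.4 and 45.9 FPKQ as lowest, median and highest in WT. The groups overlapped. Its KO call (0.18, SE 0.07, adjusted p = 0.0344) was lost against either WT set alone (adjusted p = 0.0853 and 0.0753) and without KO Rep3, KO Rep5, WT Rep4, WT Rep6 or WT Rep8 (adjusted p up to 0.143). That call was also lost after rescaling. M6pr, the smaller mannose phosphate receptor, had 194, 189, 207, 194 and 212 FPKQ in KO, 199, 194, 205, 197 and 200.4 FPKQ in R47H, and 169, 189 and 209 FPKQ as lowest, median and highest in WT. It overlapped across groups and passed in neither mutant (0.09 in KO, adjusted p = 0.107, and 0.09 in R47H, adjusted p = 0.180), although both passed against the first WT set (adjusted p = 0.0138 and 0.0301) and KO passed without WT Rep9 (adjusted p = 0.0414). Gnptg, a subunit of the enzyme that makes the mannose phosphate tag, did not pass (0.17 in KO, adjusted p = 0.0802, or 0.0281 without KO Rep5).

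Transcripts of Tfeb, Tfe3 and Mitf did not rise with the other members in KO, whereas Tfec, a relative outside the list of members, did (described below). Mitf had 26.6, 23.3, 26.4, 24.3 and 24.7 FPKQ in KO, 33.5, 26.5, 31.6, 30.2 and 30.1 FPKQ in R47H, and 25.6, 28.6 and 35.0 FPKQ as lowest, median and highest in WT. In 3 of 5 KO libraries it was below every WT library, and R47H lay within WT. It fell in KO (-0.19, SE 0.06, adjusted p = 0.0163), but not against the first WT set (adjusted p = 0.0862) or without KO Rep2 (adjusted p = 0.0547), and was higher in R47H than in KO (0.27, adjusted p = 0.00633). Tfe3 had 68.8, 70.9, 66.3, 71.8 and 62.3 FPKQ in KO, 79.5, 86.5, 86.1, 74.4 and 78.1 FPKQ in R47H, and 65.1, 69.9 and 76.9 FPKQ as lowest, median and highest in WT. KO overlapped WT, and 4 of 5 R47H libraries were above it. Its log2 fold change was -0.06 (SE 0.05, adjusted p = 0.331) in KO and 0.19 (SE 0.05, adjusted p = 0.00615) in R47H, a rise lost after rescaling (adjusted p = 0.192) and without R47H Rep2 and Rep3 (adjusted p = 0.102), and R47H was above KO by 0.25 (adjusted p = 0.00134). Tfeb had 32.3, 34.1, 33.8, 32.3 and 37.5 FPKQ in KO, 27.3, 42.0, 44.0, 37.0 and 33.4 FPKQ in R47H, and 31.0, 33.6 and 36.5 FPKQ as lowest, median and highest in WT. R47H spread both below and above the WT range. It did not pass in KO (0.02, SE 0.08, adjusted p = 0.852) or in R47H (0.11, SE 0.08, adjusted p = 0.328), where it passed without R47H Rep1 (adjusted p = 0.0179), as did the difference between R47H and KO (adjusted p = 0.0338). These are transcript levels, and the activity of these factors depends on where the protein is in the cell, which was not measured.

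Other genes of the lysosomal system, come from lists written with earlier results of these data known, and their counts stand beside 28.2% higher and 23.7% lower in KO, and 13.4% higher and 7.83% lower in R47H, over all tested genes. Of 28 other hydrolases and helpers, 20 were higher in KO than in WT and 12 were higher in R47H (10 without R47H Rep2 and Rep3), and their median log2 fold changes were 0.31 and 0.15. Creg1, a lysosomal glycoprotein, averaged 657 ± 27.3 FPKQ in KO, 465 ± 21.7 FPKQ in R47H and 382 ± 21.0 FPKQ in WT (SD; log2 fold change 0.78, adjusted p = 4.83e-12, in KO and 0.28, adjusted p = 9.37e-05, in R47H). Smpdl3a, a phosphodiesterase related to acid sphingomyelinase, averaged 207 ± 10.4 FPKQ in KO, 159 ± 5.60 FPKQ in R47H and 126 ± 7.06 FPKQ in WT (SD; 0.70 in KO, adjusted p = 2.08e-11, and 0.33 in R47H, adjusted p = 1.41e-05).

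Among 27 tested of 28 other membrane proteins, 17 were higher and 2 lower in KO, and 11 higher and 1 lower in R47H (8 and 0 without R47H Rep2 and Rep3). The metal transporter Slc11a1 averaged 253 ± 25.3 FPKQ in KO, 179 ± 2.34 FPKQ in R47H and 137 ± 9.17 FPKQ in WT (SD; log2 fold change 0.87, adjusted p = 2.10e-11, in KO and 0.39, adjusted p = 2.91e-05, in R47H). The amino acid transporter Slc36a1 averaged 28.8 ± 2.41 FPKQ in KO, 17.7 ± 1.76 FPKQ in R47H and 13.4 ± 1.72 FPKQ in WT (SD; 1.05 in KO, adjusted p = 2.54e-10, and 0.38 in R47H, adjusted p = 0.00117). Mfsd1, a lysosomal transporter, averaged 175 ± 5.90 FPKQ in KO, 126 ± 3.35 FPKQ in R47H and 119 ± 6.30 FPKQ in WT (SD), and rose in KO (0.55, adjusted p = 2.26e-10) but did not pass in R47H (0.08, adjusted p = 0.181). The genes that fell, named after their values were seen, were Slc15a4 (-0.38, adjusted p = 5.79e-05) and Tmem192 (-0.19, adjusted p = 0.0224) in KO and Tpcn1 (-0.17, adjusted p = 0.0177) in R47H. The Tmem192 call was lost against the second WT set (adjusted p = 0.124) and without KO Rep5 (adjusted p = 0.0611), and that of Tpcn1 against the second WT set (adjusted p = 0.162) and without R47H Rep1, R47H Rep2 or both R47H Rep2 and Rep3 (adjusted p = 0.0634, 0.0590 and 0.121). Slc15a4 was higher in R47H (0.27, adjusted p = 0.00664), though not after rescaling (adjusted p = 0.153) or against the second WT set (adjusted p = 0.0544), with the difference between R47H and KO at 0.65 (adjusted p = 1.67e-06).

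For 17 other tagging and sorting genes the counts were 10 higher and 2 lower in KO and 5 higher and 0 lower in R47H (4 and 0 without R47H Rep2 and Rep3). Sorl1, a sortilin-family receptor, had 21.1, 19.2, 18.9, 18.2 and 20.9 FPKQ in KO, 9.88, 9.75, 7.84, 12.1 and 13.9 FPKQ in R47H, and 6.30, 7.69 and 9.89 FPKQ as lowest, median and highest in WT. KO stood wholly above the other groups, and R47H overlapped WT. It rose by 1.22 (SE 0.11, adjusted p = 4.53e-09) in KO and 0.38 (SE 0.11, adjusted p = 0.0164) in R47H, the second lost against the first WT set (adjusted p = 0.226), after rescaling (adjusted p = 0.129) and without R47H Rep5 (adjusted p = 0.0659). Ap1b1, a subunit of the adaptor that sorts cargo at the Golgi, rose in KO (0.61, adjusted p = 1.98e-06), and so did Cln8, which helps new enzymes leave the endoplasmic reticulum (0.39, adjusted p = 2.61e-06). The 2 that fell in KO, named after their values were seen, were Gnptab (-0.38, adjusted p = 0.000122), the catalytic partner of Gnptg, and the adaptor subunit Ap1s1 (-0.41, adjusted p = 0.000146).

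Of 13 regulators of the TFEB family, 8 were higher and 2 lower in KO and 5 higher and 0 lower in R47H (3 and 0 without R47H Rep2 and Rep3). Rragd, a Rag GTPase that recruits these factors and mTORC1 to the lysosome, had 19.4, 17.1, 23.4, 17.2 and 21.2 FPKQ in KO, 10.8, 10.9, 10.7, 11.4 and 10.6 FPKQ in R47H, and 5.59, 7.05 and 8.66 FPKQ as lowest, median and highest in WT. The 3 groups were separate, and the log2 fold change was 1.34 (SE 0.08, adjusted p = 4.61e-12) in KO and 0.55 (SE 0.08, adjusted p = 2.07e-05) in R47H. Tfec, a macrophage-enriched relative of Tfeb, had 20.1, 23.3, 26.2, 23.6 and 20.2 FPKQ in KO, 15.1, 18.4, 16.2, 12.6 and 14.5 FPKQ in R47H, and 9.07, 11.3 and 12.8 FPKQ as lowest, median and highest in WT. KO was above both other groups, and R47H overlapped WT in 1 library. Tfec rose by 0.95 (SE 0.08, adjusted p = 2.83e-09) in KO and 0.41 (SE 0.08, adjusted p = 0.000896) in R47H. Rragc, which pairs with Rraga, rose by 0.45 (adjusted p = 1.11e-07) in KO and 0.18 (adjusted p = 0.0137, or 0.533 after rescaling) in R47H. Rraga (-0.14, adjusted p = 0.0243, or 0.0913 without KO Rep1 and 0.163 against the second WT set) and the mTORC1 subunit Rptor (-0.23, adjusted p = 0.00231), named after their values were seen, fell in KO.

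Of 12 tested of 13 cathepsins, 9 were higher and 1 lower in KO and 8 higher and 0 lower in R47H (6 and 0 without R47H Rep2 and Rep3). Ctsh rose by 1.09 in KO (adjusted p = 4.84e-10) and 0.63 in R47H (adjusted p = 1.26e-05), Ctsc by 0.65 (adjusted p = 1.03e-07) and 0.25 (adjusted p = 0.0166), and Ctsb by 0.41 (adjusted p = 1.19e-06) and 0.29 (adjusted p = 0.000503). Of these R47H rises, that of Ctsc was lost after rescaling (adjusted p = 0.307) and without R47H Rep1 or R47H Rep4 (adjusted p up to 0.0514), and that of Ctsb with no filter (adjusted p = 0.0823). Ctsk, also a marker of osteoclasts and named after its values were seen, was the one lower in KO (-0.51, adjusted p = 0.0212), a call lost against the first WT set (adjusted p = 0.284) and without KO Rep1 or KO Rep2 (adjusted p up to 0.0777). Of the 17 proton pump subunits, 7 were higher and 2 lower in KO and 5 higher and 0 lower in R47H (2 and 0 without R47H Rep2 and Rep3), and the median log2 fold change of the pump was 0.07 in KO and 0.16 in R47H. Atp6v1b2 (-0.54, adjusted p = 2.88e-06) and Atp6v0a1 (-0.44, adjusted p = 0.000236) fell in KO and did not pass in R47H (0.03, adjusted p = 0.837, and 0.09, adjusted p = 0.491), while Atp6v0d1 rose in KO (0.32, adjusted p = 0.000189) and in R47H (0.37, adjusted p = 0.000184).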

How the data were processed

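Per the labels' protocols, libraries of poly-A RNA kept the strand (dUTP) and were read as pairs of 75 bases. The authors deposited FPKM-type values named FPKQ, 1 table per library with 51456 symbols, and the submitters' processing notes name RSEM and GRCm38, with versions not given in the sources used here. RSEM can divide fragments between similar genes. All tests used log2(FPKQ + 1), a scale on which changes of low genes are understated. The 10843 genes averaging 1 FPKQ or more entered limma 3.58.1 (R 4.3.3, lmFit, then eBayes with trend), with all 3 groups fitted together, with Benjamini-Hochberg adjustment over all tested genes. All adjusted p-values are from this test. Between 86.1% and 89.8% of low values were whole fragments (tolerance 0.1), so no count test was run. The p-values measure the spread between libraries, which were taken as separate animals.

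Values in each KO and R47H library, with the lowest, median and highest of WT, are given, in each role, for the 3 called members with the largest change in KO, the 2 in R47H, the highest in WT, those that fell, and the TFEB family (25 members); of the other lists, for the 3 genes with the smallest adjusted p in KO or some of them. The members and lists were chosen with earlier results of these data known. Promoters came from RefSeq (GRCm38.p6) and positions from GENCODE on GRCm38. Alternatives covered the WT set, pseudocount, filter, scaling, moderation, library weights, the groups in the model, a replicate block and each library left out. Same-numbered libraries had correlations of -0.25 to 0.34, so replicate numbers were not taken as pairs. WT Rep6 to Rep10 have no same-numbered mutant library, so a pairing with them was not tested. Some genes of the lists are not reported here and were left out of their counts.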

Additional observations from a re-analysis of the deposited data

Results flagged for a closer look

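Over the 47 members and 3 groups, 141 groups of values were examined for 1 library far from the others (Dixon's test), and 9 were found, where chance gives about 1 in 20. KO Rep5 was above the other KO libraries for Neu1 (73.5 FPKQ, others 65.0 to 67.2), Idua (33.7 FPKQ, others 29.5 to 30.0) and Laptm5 (1276 FPKQ, others 1084 to 1130), and KO Rep1 was below them for Naglu (78.5 FPKQ, others 89.5 to 92.3). In R47H, Rep5 was low for Naglu (63.4 FPKQ, others 73.3 to 77.3), Rep4 was low for Gm2a (114 FPKQ, others 119 to 122) and Rep2 was low for Igf2r (35.8 FPKQ, others 40.8 to 41.9). WT Rep9 was high for Asah1 (262 FPKQ, others 212 to 236) and Hgsnat (53.2 FPKQ, others 43.6 to 48.3). Both Naglu values lie toward WT, and Naglu nonetheless had no overlap between any of the 3 groups.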

How the results depend on the processing

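The count of 32 members higher in KO (3063 of all tested genes) stayed between 27 (1999, equal sums) and 36 (3387, library weights) under 12 alternatives. With each library left out it was 31 to 33 (2810 to 3118 of all tested genes). The 21 lower in R47H than in KO (1947 of all tested genes) stayed between 17 (1539, only the 2 groups compared) and 26 (2215, quantile normalization). With each library left out they were 19 to 22 (1652 to 2042 of all tested genes). The 2 lower in KO became 1 against WT Rep1 to Rep5, 5 with equal sums, 4 with quantile normalization and 1 to 2 with a library left out. Over all tested genes these lower calls were 2573 as deposited, then 1993, 3540, 2611 and 2338 to 2640 in the same order. The 25 higher in R47H than in WT became 10 with equal sums, 14 with quantile normalization and 20 to 27 with a library left out, and the 1 lower became 2 with equal sums and 2 with quantile normalization. Over all tested genes the higher calls were 1452 as deposited, then 476, 1013 and 1032 to 1507 in the same order. The lower calls were 849 as deposited, 1824 with equal sums and 1071 with quantile normalization. The 5 higher in R47H than in KO became 3 with only the 2 groups compared, 3 without R47H Rep2 and Rep3 and 3 to 6 with a library left out. Over all tested genes these calls were 2470 as deposited, then 1981, 1770 and 2091 to 2667 in the same order. Beyond these counts the cause was not tested. A replicate block was also fitted, though the numbers were not shown to pair the samples. WT Rep6 to Rep10 share no number with a mutant library, so this fit in effect used WT Rep1 to Rep5 as the control. With it, 1 member was lower in KO (1987 of all tested genes) and 16 were higher in R47H than in WT (1155 of all tested genes). No called member changed sign under any alternative run. The sign turned for 86 values that passed under neither setting. Leaving out R47H Rep2 and Rep3, or Rep4 and Rep5 (27 members and 1803 of all tested genes higher than in WT), was chosen after seeing the data. Counting error weighs most on members near 10 FPKQ, such as Arsb.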
